A study of Mus musculus with 8 samples.

Results

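A set of 42 genes of the mitotic chromosome cycle was examined in spermatogenic cells of young mice with and without Brg1: the cyclins and phosphatases that start mitosis, condensin and other chromosome proteins, the spindle checkpoint, the kinetochore, the chromosomal passenger complex, spindle motors, the cytokinesis machinery and the proteins of anaphase onset. The members, a list of symbols of mitotic genes, were matched by symbol, and all 42 were found among the 28460 genes of the deposited table and passed the filter on low counts, which left 16059 genes. The libraries were 4 Brg1 WT (wild type, called WT 1 to 4 here) and 4 Brg1 cKO (conditional knockout, cKO 1 to 4) of a mixed strain background, all of testes at postnatal day 12, and the series' text calls them biological replicates. Brg1, encoded by Smarca4, is the motor subunit of SWI/SNF complexes, which move nucleosomes. The sources used here give neither the Cre driver nor the deleted part of the gene, nor any pooling of animals. Cells were obtained by enzyme digestion and sieving, with no marker sort named.

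At the start of mitosis, cyclin-dependent kinase 1 (CDK1) joins its cyclins and is switched on by CDC25 phosphatases. Condensin then compacts the chromosomes, kinetochores built on the centromeric histone CENP-A catch microtubules, and the spindle checkpoint holds anaphase back until every chromosome is attached. CDC20 then directs the anaphase-promoting complex (APC/C) against securin and cyclin B, separase opens cohesin, and the central spindle guides cytokinesis. Most of these genes are transcribed together late in the cell cycle, through CCAAT boxes bound by NF-Y and cell cycle genes homology regions (CHR) bound by the MuvB complex. In the young testis, spermatogonia are the main mitotic germ cells, some somatic cells still divide, and spermatocytes use much of the same machinery for the meiotic divisions.

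Genes of this programme share promoter elements, so members' promoters are shown first, from RefSeq on GRCm38.p6, a later build than the mm9 named for the counts. RefSeq starts were found for 34 members, with 37 start sites, and none for Ccna2, Cdc25c, Smc4, Spc24, Aurkb, Incenp, Tpx2 and Kif20a. The letters CCAAT (or ATTGG, the other strand) and the CHR letters TTTGAA (or TTCAAA) and TTTAAA, which reads the same on both strands, were searched in the 250 bases before each start. The promoters below, 150 bases ending at the base before the start, were chosen to set genes that fell in cKO beside genes that did not pass the test and to include a promoter without either element. Capitals mark the CCAAT and CHR letters.
Top2a, topoisomerase II alpha (chr11:99024190-99024339, minus strand): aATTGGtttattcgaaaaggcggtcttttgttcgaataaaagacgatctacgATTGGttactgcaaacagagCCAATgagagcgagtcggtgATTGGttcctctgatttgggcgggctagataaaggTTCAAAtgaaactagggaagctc
Cenpa, the centromeric histone (chr5:30666736-30666885, plus strand): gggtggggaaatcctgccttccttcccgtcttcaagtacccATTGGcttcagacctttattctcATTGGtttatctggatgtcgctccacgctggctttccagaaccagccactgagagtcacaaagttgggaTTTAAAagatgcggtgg
Kif11, the spindle motor Eg5 (chr19:37376232-37376381, plus strand): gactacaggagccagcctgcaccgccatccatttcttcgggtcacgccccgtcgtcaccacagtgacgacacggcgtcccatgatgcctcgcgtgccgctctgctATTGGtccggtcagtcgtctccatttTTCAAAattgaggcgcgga
Cdc20, the APC/C activator (chr4:118437344-118437493, minus strand): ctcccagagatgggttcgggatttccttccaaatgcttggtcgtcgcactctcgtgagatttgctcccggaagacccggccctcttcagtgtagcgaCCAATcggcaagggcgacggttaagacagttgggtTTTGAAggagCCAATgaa
Nuf2, a subunit of the NDC80 complex (chr1:169531465-169531614, minus strand): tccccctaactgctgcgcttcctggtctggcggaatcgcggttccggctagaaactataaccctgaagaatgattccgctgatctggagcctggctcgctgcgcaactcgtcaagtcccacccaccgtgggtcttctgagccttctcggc
Cdk1, the mitotic kinase (chr10:69352913-69353062, minus strand): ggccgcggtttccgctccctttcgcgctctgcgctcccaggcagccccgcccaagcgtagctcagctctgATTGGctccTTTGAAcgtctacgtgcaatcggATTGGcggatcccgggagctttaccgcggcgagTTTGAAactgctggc
Espl1, separase (chr15:102296143-102296292, plus strand): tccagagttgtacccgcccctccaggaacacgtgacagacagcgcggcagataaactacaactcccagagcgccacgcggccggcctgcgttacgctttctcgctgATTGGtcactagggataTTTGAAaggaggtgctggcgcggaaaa
Over the 37 member promoters, 29 (78.4%) held CCAAT, 20 (54.1%) a CHR and 18 (48.6%) both. The shares among all 32851 promoters of the same length were 33.8%, 25.2% and 8.78%. Among the 14420 promoters of genes that passed the count filter they were 34.8%, 17.9% and 6.59%. The first 4 promoters above belong to genes lower in cKO and hold both elements, but so do those of Cdk1 and Espl1, which did not pass the test, while Nuf2, among the steepest falls, has neither in its whole window. Counted by gene, both elements were present in 10 of the 24 members that fell and in 6 of the 10 that were not called. A match of letters describes the sequence and does not show a bound site.

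Most of the 42 mitotic transcripts were modestly lower in Brg1 cKO relative to the average gene. Their median lay below that of pan-germ cell genes (-0.32) and above that of undifferentiated spermatogonia genes (-0.53). Of the 42 members, 28 fell, none rose and 14 were not called (edgeR quasi-likelihood test, Benjamini-Hochberg adjusted p under 0.05 over all genes tested), where 11.8% of all tested genes were called lower and 8.79% higher (20.6% either way). Every one of the 42 fitted log2 fold changes was below 0, as for 48.5% of all genes, and their median was -0.41, a 1.33-fold lower level, against 0.013 for all genes tested. Taking the median of undifferentiated spermatogonia genes as no change adds 0.53 to every gene alike, so that the members' median becomes 0.12 and the 31 members above -0.53 turn positive. The pan-germ cell median adds 0.32, and 9 members turn positive. Fold changes ran from -0.67 (Aurka) to -0.015 (Cdk1) on the log2 scale, and 6 members were at least 1.5-fold lower. All 4 cKO libraries lay below all 4 WT libraries for 26 members, 25 of them called, where 15.0% of all tested genes did so. The role groups differed in how many members passed: all 12 kinetochore and spindle assembly genes were called, against 1 of the 6 genes for entry into mitosis. Part of this contrast rests on calls at the threshold. By edgeR, Kif2c passed at an adjusted p of 0.0496, while Ccna2 and Ccnb2 missed at 0.052 and 0.053. The difference between the groups was not tested.

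Whole-library facts bear on these counts. Totals ran from 20456743 to 32596038 estimated counts, and the lowest count of any member in any library was 178. Smarca4 had 338 to 357 CPM (counts divided by TMM-scaled library totals) in WT and 111 to 129 CPM in cKO. RNA of germ cells and of somatic cells was present: Dazl and Ddx4, RNA-binding proteins of germ cells, had means of 645 and 214 CPM in WT, beside 2807.9 CPM of Clu and 112 CPM of Amh from Sertoli cells, the somatic nurse cells of the tubule. In such bulk samples, fewer cells of a type and less RNA per cell cannot be told apart. Brg1 cKO 2 stood apart from the other cKO libraries in the members, with the highest level of the 4 for 35 of 42. Each result on members is therefore given below with and without it where it matters. Since cKO 2 was picked by these same levels, leaving it out lowers the cKO mean of most members by construction. Fits without it describe how a call depends on that library and add no support to the call. WT 1 was the highest WT library for 27 members.

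**Figure D1:**
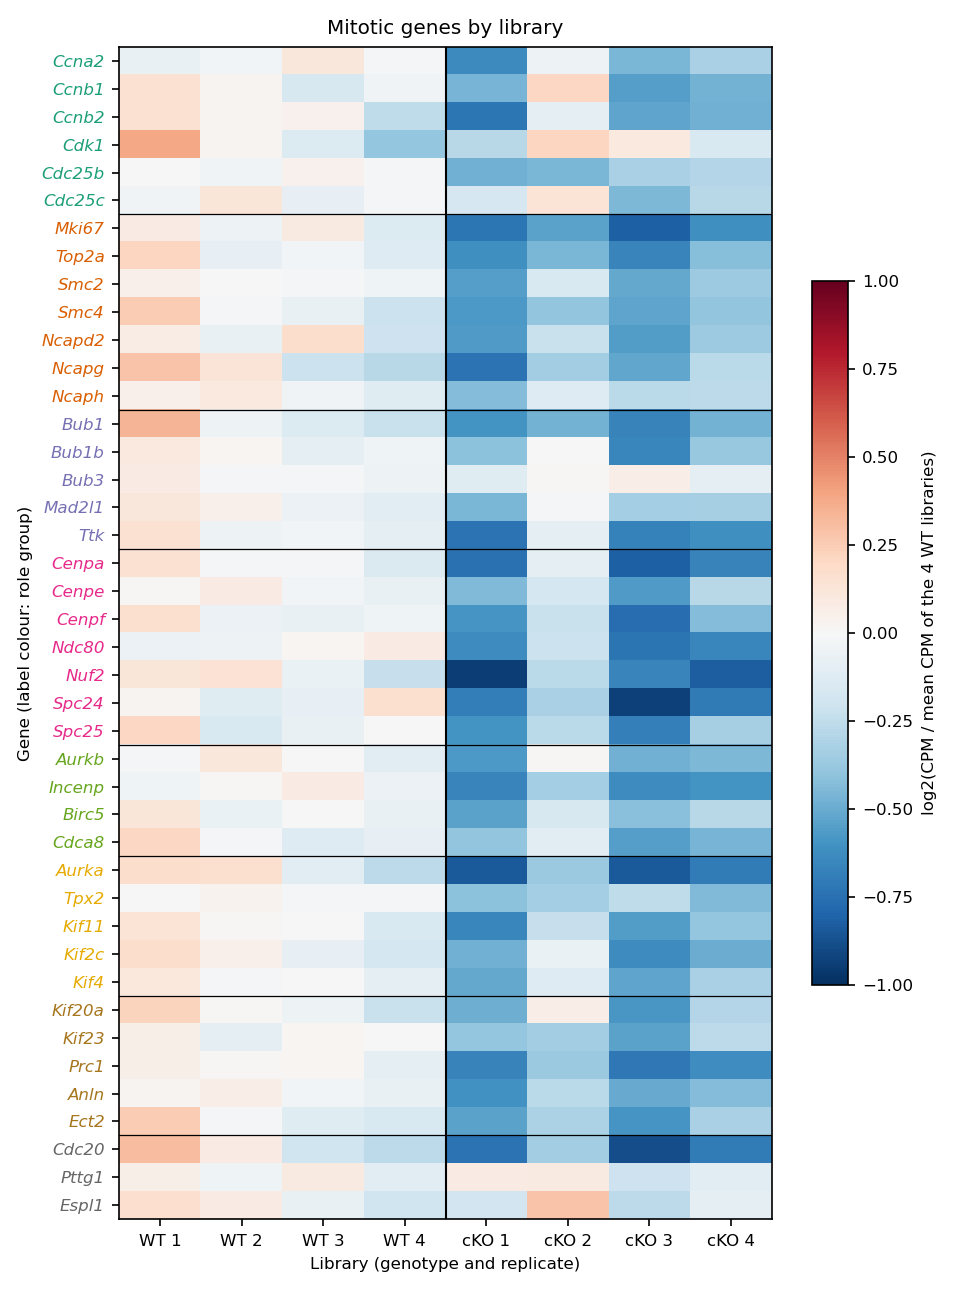
Each row is a mitotic gene (label colours and lines mark role groups), each column a library, and colour gives log2 of the CPM over the mean of the 4 WT libraries. Brg1 cKO 1, 3 and 4 are blue in nearly all rows (all 3 lie below every WT library for 37 of 42 genes), cKO 2 is paler, and the rows of Cdk1, Bub3, Pttg1 and Espl1 show no such contrast. Adding 0.53 to every gene, to put undifferentiated spermatogonia genes at no change, turns 31 of the 42 differences positive. With pan-germ cell genes at no change, 9 turn positive.

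Most genes that start mitosis were not called. Of 6 members, 1 fell and 5 were not called, with a median log2 fold change of -0.32. Cdc25b, the phosphatase that first activates CDK1 at the centrosome, had 19.2, 18.7, 19.7 and 18.8 CPM in WT 1 to 4 and 13.7, 13.9, 15.3 and 15.6 CPM in cKO 1 to 4. Its groups were tight and did not overlap, with a fitted log2 change of -0.39 ± 0.0844 (SE, n = 4 each, edgeR adjusted p = 0.015). Cdk1 itself had 45.0, 35.0, 31.3 and 26.3 CPM in WT 1 to 4 and 28.4, 39.9, 36.9 and 30.9 CPM in cKO 1 to 4. Here WT 1 was the highest library and WT 4 the lowest of all 8, so the WT libraries spanned the cKO ones, and the log2 fold change was -0.015 ± 0.168 (SE, adjusted p = 0.960 by edgeR). Without WT 1 the estimate for Cdk1 was 0.14, still not called.

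For Ccnb1, cyclin B1, the outcome rested on a single library. It had 87.7, 80.6, 70.6 and 76.9 CPM in WT 1 to 4 and 57.2, 91.4, 53.8 and 56.8 CPM in cKO 1 to 4: 3 cKO libraries lay below all WT libraries and cKO 2 above them all. With 8 libraries the log2 fold change was -0.28 ± 0.166 (SE, edgeR adjusted p = 0.245), and without cKO 2 it was -0.50 (edgeR adjusted p = 0.0065). Its paralogue Ccnb2, cyclin B2, had 32.4, 29.7, 30.0 and 24.5 CPM in WT 1 to 4 and 17.6, 27.3, 20.2 and 20.9 CPM in cKO 1 to 4. The S and G2 phase cyclin gene Ccna2 had 83.9 ± 4.82 CPM in WT and 65.8 ± 11.3 CPM in cKO (SD, n = 4 each). Ccnb2 and Ccna2 lay just outside the threshold (adjusted p = 0.053 and 0.052 by edgeR), at log2 fold changes of -0.44 and -0.35, and both were called without cKO 2 (adjusted p = 0.012 and 0.0090 by edgeR). Cdc25c, the least abundant member, had 10.7 ± 0.646 CPM in WT and 9.46 ± 1.66 CPM in cKO (SD, n = 4 each) and an adjusted p of 0.387 by edgeR. Of the runs of 31 bases in Ccnb1 transcripts, 27.7% also occur in transcripts of other genes, mostly the pseudogene Ccnb1-ps, so its counts are less certain than those of most members. For Cdc20 the share was 25.5%, mostly with Gm7856, which had 2.2 to 9.1 estimated counts a library against 909.2 to 2683.2 for Cdc20. The other 40 members shared at most 7.86%.

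Chromosome structure genes fell for 5 of 7 members, with a median of -0.46. Mki67 encodes Ki-67, which coats mitotic chromosomes and marks cycling cells. It had 419, 381, 422 and 361 CPM in WT 1 to 4 and 240.0, 273, 225 and 259 CPM in cKO 1 to 4. All cKO libraries were lower than all WT libraries by a wide margin, with a fitted log2 change of -0.67 ± 0.0806 (SE, n = 4 each, edgeR adjusted p = 0.0021), the smallest p of the 42. Top2a, which untangles sister DNA, had 499.5, 405, 421 and 393 CPM in WT 1 to 4 and 281, 314, 272 and 320.3 CPM in cKO 1 to 4. Its log2 fold change was -0.53 ± 0.0911 (SE, edgeR adjusted p = 0.0061), and WT 1 was the highest library. Both genes were called in all 8 fits that left out 1 library.

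Condensin I is a ring of the ATPase pair SMC2 and SMC4, closed by NCAPH and carrying NCAPD2 and NCAPG. Smc4 went from 306 ± 42.8 to 221 ± 14.4 CPM and Smc2 from 112 ± 3.11 to 85.7 ± 11.1 CPM (SD, n = 4 each), 1.38-fold and 1.31-fold lower (edgeR adjusted p = 0.013 and 0.016). Neither gene overlapped between genotypes. Ncapd2 went from 118 ± 13.8 to 88.2 ± 10.3 CPM (SD, n = 4 each), 1.34-fold lower (edgeR adjusted p = 0.022), a call kept in 4 of the 8 fits that left out 1 library. Ncapg, the member of this group with the largest p, had 106, 94.8, 74.4 and 71.4 CPM in WT 1 to 4 and 52.1, 68.1, 60.5 and 71.8 CPM in cKO 1 to 4. Here cKO 4 lay just above WT 4, and the fitted log2 change of -0.46 ± 0.145 (SE, edgeR adjusted p = 0.052) fell just short of the threshold, as did that of Ncaph (-0.27 ± 0.0849, adjusted p = 0.052), the only uncalled member whose genotypes did not overlap. Without cKO 2 Ncaph was called, with a log2 difference of -0.32 (edgeR adjusted p = 0.032). Per kilobase of the longest coding transcript of a later annotation (which may differ from the one used for counting), WT levels were 70.8 ± 9.93 CPM per kb for Smc4 and 20.7 ± 0.575 for Smc2 (SD, n = 4), 25.5 ± 2.98 for Ncapd2, 23.4 ± 4.45 for Ncapg and 12.3 ± 0.804 for Ncaph. On that scale of levels Smc4 stood well above its partners, Smc2, Ncapd2 and Ncapg lay close together and Ncaph was lowest.

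Of the 5 spindle checkpoint genes, 2 fell and 3 were not called, with a median of -0.34. Bub1, a kinase that recruits the other checkpoint proteins to kinetochores, had 187, 142, 134 and 126 CPM in WT 1 to 4 and 97.2, 107, 92.6 and 106 CPM in cKO 1 to 4. Its genotypes did not overlap, although WT 1 stood high, and the log2 fold change was -0.55 ± 0.117 (SE, n = 4 each, edgeR adjusted p = 0.013). Bub3, the adaptor that binds BUB1 and BUBR1, had 55.0, 51.5, 51.3 and 50.2 CPM in WT 1 to 4 and 47.8, 52.3, 54.3 and 48.9 CPM in cKO 1 to 4. The libraries of the genotypes were interleaved, and the fitted change was -0.032 ± 0.0639 (SE, adjusted p = 0.746 by edgeR). The ratio of Bub1 to Bub3 within a library hardly depends on scaling between libraries. On the log2 CPM scale it was 1.49 ± 0.192 in WT and 0.98 ± 0.150 in cKO (SD, n = 4 each), a difference of -0.50 ± 0.122 (SE) with no overlap. Its exact two-sided permutation p was 0.0286, the smallest that 4 against 4 libraries can give, and 0.143 after adjustment over the 10 partner pairs compared.

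Ttk, the kinase MPS1 that starts checkpoint signalling, had 44.5, 38.7, 39.2 and 37.7 CPM in WT 1 to 4 and 24.0, 37.7, 25.1 and 26.1 CPM in cKO 1 to 4. It was called (log2 fold change -0.50, edgeR adjusted p = 0.033), but WT 4 and cKO 2 were nearly level, and of the 8 fits that left out 1 library only that without cKO 2 called it. Bub1b, which encodes BUBR1, had 79.8 ± 4.51 CPM in WT and 63.1 ± 12.3 CPM in cKO and Mad2l1, which encodes MAD2, 46.1 ± 3.35 CPM in WT and 38.0 ± 5.18 CPM in cKO (SD, n = 4 each). Neither passed (edgeR adjusted p = 0.075 and 0.078). Of the 8 fits that left out 1 library, only that without cKO 2 called them (adjusted p = 0.0081 and 0.014 by edgeR).

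All 7 centromere and kinetochore genes fell, the median log2 fold change being -0.54. Spc24, a subunit of the base of the NDC80 complex, had 37.6, 34.0, 34.9 and 41.2 CPM in WT 1 to 4 and 22.8, 29.5, 19.3 and 22.7 CPM in cKO 1 to 4. WT 4 was highest, cKO 2 was the highest cKO library, and the groups did not overlap, with a fitted log2 change of -0.64 ± 0.127 (SE, n = 4 each, edgeR adjusted p = 0.010). Its partner Spc25 went from 32.6 ± 3.58 to 23.7 ± 3.33 CPM (SD, n = 4 each, edgeR adjusted p = 0.025). The microtubule-binding subunits also fell: Ndc80 went from 45.8 ± 2.11 to 31.4 ± 5.36 CPM and Nuf2 from 28.7 ± 3.40 to 18.3 ± 3.90 CPM (SD, n = 4 each), with log2 fold changes of -0.54 and -0.65 (edgeR adjusted p = 0.012 and 0.018). None of the 4 subunits overlapped between genotypes. Within the complex, the Ndc80 to Nuf2 ratio differed by 0.11 ± 0.146 and the Spc24 to Spc25 ratio by -0.20 ± 0.101 (log2 scale, SE). Their exact permutation p was 0.486 and 0.114, and 0.540 and 0.286 after adjustment. With so few libraries no single pair could pass the adjusted test. These ratios therefore do not show that the balance of subunits was unchanged. Per kilobase, Ndc80, Spc24 and Spc25 had 20.8 ± 0.959, 21.8 ± 1.90 and 21.4 ± 2.35 CPM per kb in WT (SD, n = 4) and Nuf2 11.9 ± 1.41. The first 3 differed by less than their spread, and Nuf2 was lower.

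Cenpa, the histone H3 variant that marks the centromere, had 44.7, 39.9, 39.8 and 36.4 CPM in WT 1 to 4 and 23.9, 37.5, 22.8 and 25.3 CPM in cKO 1 to 4. In 3 cKO libraries it was far below WT, while cKO 2 lay above WT 4. Its log2 fold change was -0.55 ± 0.153 (SE, edgeR adjusted p = 0.033), the largest p of the group, and it was called in 2 of the 8 fits that left out 1 library. Cenpf, a large protein of the outer kinetochore and nuclear matrix, had 375, 323, 319 and 325 CPM in WT 1 to 4 and 223, 288, 198 and 249 CPM in cKO 1 to 4, with WT 1 alone at the top, and fell by 0.49 on the log2 scale (edgeR adjusted p = 0.017). Cenpe, the kinesin that carries chromosomes toward the spindle equator, went from 131 ± 5.83 to 103 ± 12.3 CPM (SD, n = 4 each), 1.28-fold lower (edgeR adjusted p = 0.020).

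In the chromosomal passenger complex 3 of 4 genes fell. Incenp, the scaffold that ties the kinase Aurora B to the inner centromere, had 96.3, 99.6, 105 and 94.9 CPM in WT 1 to 4 and 62.6, 78.0, 64.0 and 65.2 CPM in cKO 1 to 4. The WT libraries lay close together and every cKO library was below them, cKO 2 nearest, with a fitted log2 change of -0.55 ± 0.0779 (SE, n = 4 each, edgeR adjusted p = 0.0034). Aurkb, the kinase itself, had 22.2, 24.3, 22.6 and 21.0 CPM in WT 1 to 4 and 15.2, 22.7, 16.2 and 16.5 CPM in cKO 1 to 4. Brg1 cKO 2 lay within the WT range, and the fitted log2 change of -0.35 ± 0.132 was not called (SE, edgeR adjusted p = 0.083), although without cKO 2 it was -0.50 (adjusted p = 0.0088 by edgeR). The targeting subunits survivin (Birc5) and borealin (Cdca8) went from 27.4 ± 1.78 to 21.6 ± 2.45 CPM and from 63.2 ± 6.67 to 48.9 ± 6.76 CPM (SD, n = 4 each), 1.27-fold and 1.29-fold lower (edgeR adjusted p = 0.037 and 0.040). The genotypes of Birc5 did not overlap, and those of Cdca8 did, in cKO 2 against WT 3. Of the 8 fits that left out 1 library, only the one without cKO 2 called them.

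**Figure D2:**
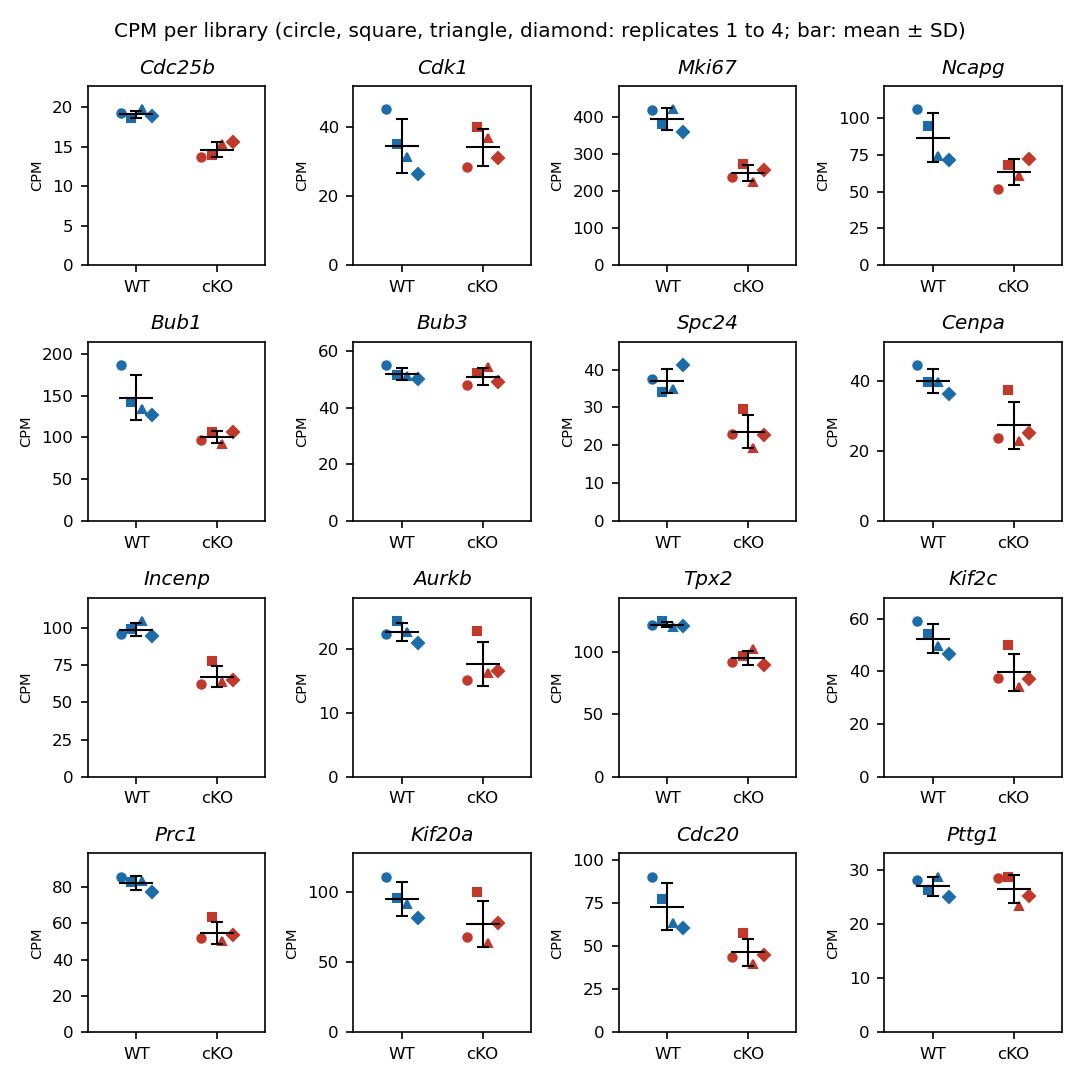
CPM (vertical axes, from 0) of 16 mitotic genes in each library, by genotype. For each role group the gene with the smallest and the gene with the largest p are shown, symbols mark replicates 1 to 4, and bars give the mean and SD. The 2 groups of points separate for Cdc25b, Mki67, Bub1, Spc24, Incenp, Tpx2, Prc1 and Cdc20, and overlap for the other 8, where cKO 2 (red square) often lies among the WT points.

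All 5 spindle assembly genes fell. Tpx2, which activates Aurora A on spindle microtubules, had 122, 125, 120.4 and 121 CPM in WT 1 to 4 and 91.7, 96.5, 102 and 89.8 CPM in cKO 1 to 4. The WT libraries varied very little and the cKO libraries were all lower, with a fitted log2 change of -0.36 ± 0.0557 (SE, n = 4 each, edgeR adjusted p = 0.0045). Aurka, the kinase it activates, had 29.5, 29.1, 24.1 and 21.7 CPM in WT 1 to 4 and 14.6, 20.2, 14.6 and 16.1 CPM in cKO 1 to 4, the largest fold change of the 42 at -0.67 ± 0.141 (SE, adjusted p = 0.013 by edgeR), a 1.59-fold lower level with no overlap. The ratio of Aurka to Aurkb within a library was 0.20 ± 0.162 in WT and -0.10 ± 0.0666 in cKO on the log2 scale (SD, n = 4 each). That difference of -0.30 ± 0.0875 (SE) had an exact permutation p = 0.0286 and an adjusted p = 0.143. Among the motors, Kif11 (Eg5, which pushes spindle poles apart) went from 108 ± 8.83 to 79.1 ± 10.4 CPM and Kif4 (a chromokinesin) from 45.7 ± 2.62 to 35.5 ± 4.80 CPM (SD, n = 4 each), 1.36-fold and 1.29-fold lower without overlap (edgeR adjusted p = 0.015 and 0.030). Kif2c, the microtubule depolymerase MCAK, had 59.2, 54.4, 49.5 and 46.5 CPM in WT 1 to 4 and 37.6, 50.0, 34.0 and 37.1 CPM in cKO 1 to 4. Here cKO 2 lay above WT 3 and WT 4. The call was marginal (log2 fold change -0.40 ± 0.126, SE, edgeR adjusted p = 0.0496), and of the fits that left out 1 library only that without cKO 2 kept it.

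In the central spindle and cytokinesis group 4 of 5 genes fell. Prc1, which bundles the antiparallel microtubules of the central spindle, had 85.7, 82.8, 83.3 and 77.1 CPM in WT 1 to 4 and 51.8, 63.7, 50.1 and 53.4 CPM in cKO 1 to 4. The genotypes were well apart, with a fitted log2 change of -0.59 ± 0.0816 (SE, n = 4 each, edgeR adjusted p = 0.0032). Kif23, the motor of the centralspindlin complex, went from 108 ± 4.80 to 83.3 ± 6.47 CPM, and Anln, the furrow scaffold anillin, from 86.7 ± 3.77 to 63.5 ± 6.32 CPM (SD, n = 4 each), with adjusted p = 0.0071 and 0.0060 by edgeR. Ect2, the exchange factor that activates RhoA at the furrow, went from 71.7 ± 9.54 to 53.0 ± 5.15 CPM (SD, n = 4 each), 1.35-fold lower (edgeR adjusted p = 0.019). Kif20a, the kinesin MKLP2 that moves the passenger complex to the midzone, had 111, 96.1, 91.6 and 81.6 CPM in WT 1 to 4 and 67.9, 99.8, 63.6 and 77.8 CPM in cKO 1 to 4. It was not called (log2 fold change -0.30 ± 0.146, SE, edgeR adjusted p = 0.172), cKO 2 lying above 3 of the 4 WT libraries, and was called without cKO 2 (adjusted p = 0.025 by edgeR).

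At anaphase onset 1 gene fell and 2 were not called. Cdc20, the APC/C activator, had 90.5, 77.5, 63.5 and 60.8 CPM in WT 1 to 4 and 43.8, 57.5, 39.5 and 45.0 CPM in cKO 1 to 4. WT varied widely, with WT 1 highest, yet all cKO libraries were lower, with a fitted log2 change of -0.65 ± 0.151 (SE, n = 4 each, edgeR adjusted p = 0.019). The call was absent without WT 2, cKO 1 or cKO 3, with an adjusted p of at most 0.057 over the fits by edgeR that left out 1 library. Its substrate securin, Pttg1, had 28.1, 26.2, 28.8 and 24.9 CPM in WT 1 to 4 and 28.5, 28.8, 23.4 and 25.1 CPM in cKO 1 to 4. The groups were interleaved (log2 fold change -0.030 ± 0.0914, SE, edgeR adjusted p = 0.839). Separase, Espl1, the protease that securin restrains, had 119, 112, 100.4 and 92.2 CPM in WT 1 to 4 and 92.4, 129, 88.5 and 99.5 CPM in cKO 1 to 4, with cKO 2 the highest of all libraries and no call (log2 fold change -0.049 ± 0.125, SE, edgeR adjusted p = 0.805). Both standard errors are small beside the fall of Cdc20, but smaller differences in Pttg1 and Espl1 were not detectable with this spread.

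**Figure D3:**
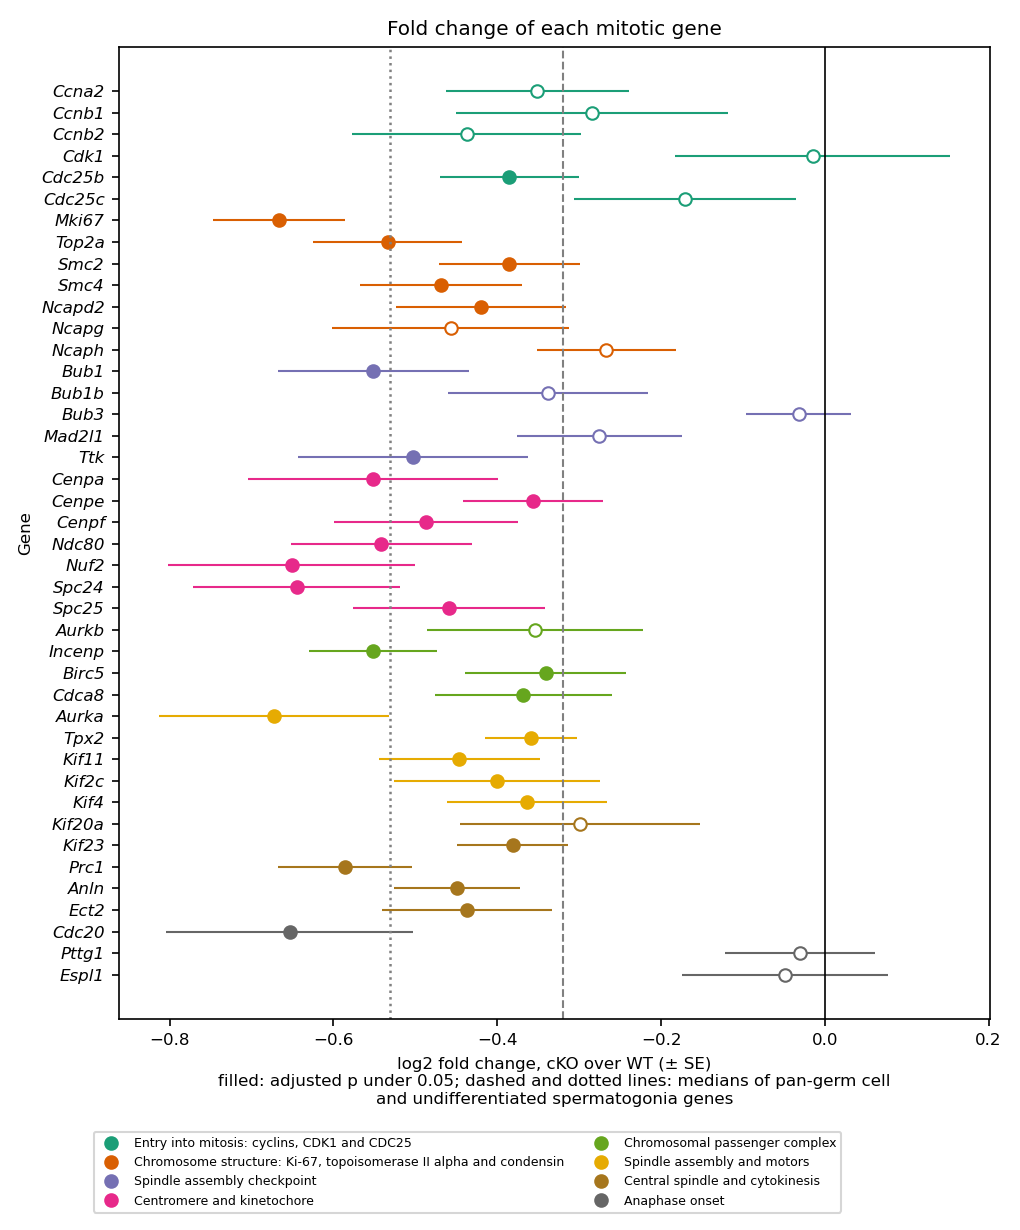
Log2 fold change of cKO over WT (horizontal axis, with SE) for each of the 42 mitotic genes, by role group, filled where the adjusted p is under 0.05. All 42 lie left of 0, 33 left of the dashed line (the pan-germ cell median, -0.32) and 11 left of the dotted line (the undifferentiated spermatogonia median, -0.53).

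Of the 10 partner pairs, none passed after adjustment, and the 2 pairs described above, Bub1 with Bub3 and Aurka with Aurkb, were the only ones without overlap between genotypes. Both had the smallest possible exact permutation p, 0.0286, which became 0.143 after adjustment. With so few libraries a single pair could not pass the adjusted test whatever its difference, so the lack of a pass is uninformative for all 10 pairs. The other 8 differences ran from -0.20 (Cdc25b to Cdc25c) to 0.32 (Cdk1 to Ccnb1), with adjusted p from 0.286 to 0.743 (exact permutation tests). Mki67 to Top2a differed by -0.14 ± 0.0576 and Smc2 to Smc4 by 0.067 ± 0.0958 (SE).

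The mean levels of the germ cell lists were also lower in cKO than in WT, with an order of libraries that differed from list to list. The members' mean log2 CPM was 6.17, 6.06, 6.01 and 5.94 in WT 1 to 4 and 5.52, 5.88, 5.51 and 5.64 in cKO 1 to 4, so that cKO 2 came close to WT 4. Summed levels of 20 pan-germ cell genes were 2490 to 3075 CPM in WT and 1952 to 2568 CPM in cKO. Of the 20, 3 (Rnf17, Tex14 and Taf4b) were called lower, a share near that of all genes, and none higher. Over all tested genes 11.8% were called lower and 8.79% higher, shares to set beside each count of calls in this paragraph. The mean log2 CPM of the pan-germ list was 6.36, 6.29, 6.05 and 6.02 in WT 1 to 4 and 5.63, 6.08, 5.70 and 5.98 in cKO 1 to 4. It was also highest in cKO 2 among the cKO libraries, above WT 3 and WT 4, so the genotypes overlapped. Undifferentiated spermatogonia genes had 3.42, 3.82, 3.46 and 3.58 in WT 1 to 4 on that scale, lowest in WT 1, where the members were highest, and 2.90, 3.25, 3.01 and 2.99 in cKO 1 to 4. Among cKO libraries, the lists of differentiating spermatogonia (6.27) and meiotic prophase (5.21) were highest in cKO 4, and pachytene and spermatid genes lowest there. Of 20 markers of undifferentiated spermatogonia, which hold the stem cells, 9 were lower and 2 (Nanos2 and Bcl6b) higher, with a list median of -0.53. The list was mixed, its log2 fold changes running from -2.08 to 0.94. Of 10 genes of differentiating spermatogonia 4 (Kit, Stra8, Esx1 and Prss50) were lower and 1 (Ccnd2) higher, with a median of -0.42. Meiotic prophase genes had 12 of 20 lower and none higher, and pachytene and spermatid genes 9 of 17 lower and none higher, 3 more being below the count filter. Of those 9, Ccna1, Adam2, Tekt1 and Nme5 were near the floor, with WT means of 1.19, 1.75, 1.52 and 1.32 CPM. The others (Ybx2, Clgn, Piwil1, Tbpl1 and Hspa2) had WT means from 11.9 to 100 CPM. Sertoli cell genes moved the other way, with 10 of 22 higher, 1 (Trf) lower and a median of 0.38, and summed to 6818 to 8826 CPM in WT and 8859 to 11647 CPM in cKO. Leydig cell genes summed to 36.2 to 55.2 CPM in WT and 37.6 to 94.8 CPM in cKO (2 of 8, Akr1c14 and Fabp3, higher), and peritubular and stromal genes to 1639 to 2793 and 2315 to 3784 CPM (Pdgfra and Mgp higher, Actg2 lower, of 14). Of 12 macrophage and 12 endothelial genes none was called. The part of these marker changes in the fall of the mitotic genes was not tested.

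**Figure D4:**
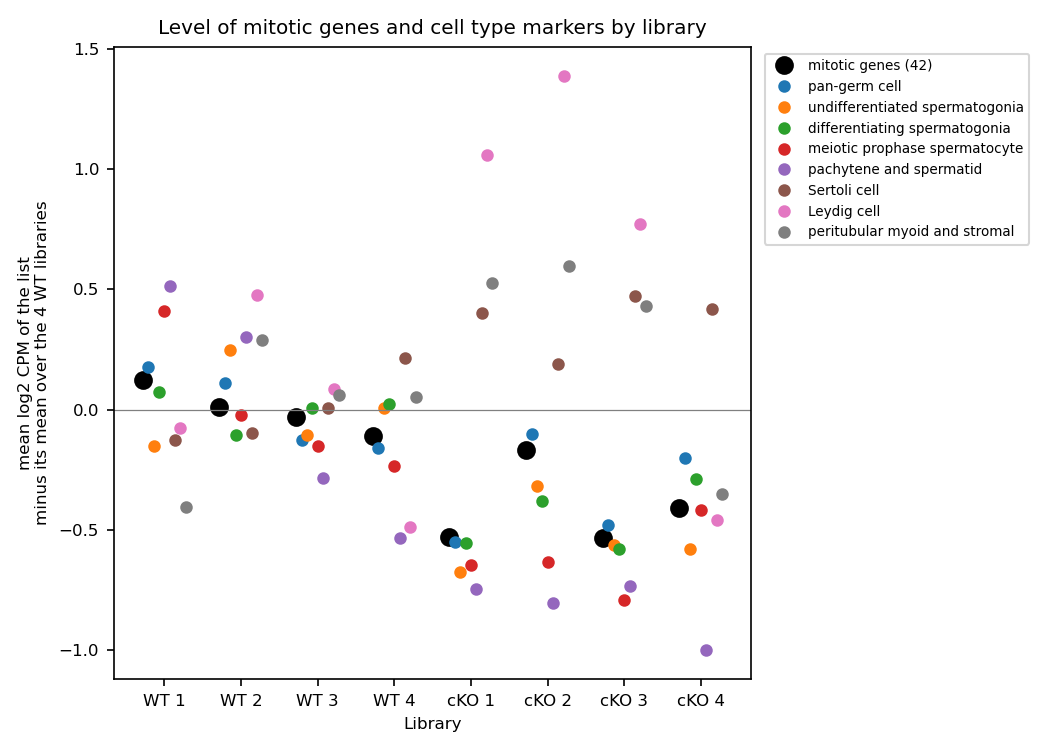
Mean log2 CPM of the 42 mitotic genes (black) and of cell type marker lists in each library, minus the mean of the list over the 4 WT libraries (vertical axis). In all 4 cKO libraries the mitotic genes (levels of 5.51 to 5.88, against 5.94 to 6.17 in WT) and the germ cell lists lie below their WT means, cKO 2 being the highest for the mitotic genes, while Sertoli cell genes lie above theirs. Scaled to undifferentiated spermatogonia genes, the median of the mitotic genes turns positive, and scaled to pan-germ cell genes it stays negative (-0.091).

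A different reference moves all genes by 1 constant and leaves the differences among the members as they were, so the values that follow describe the members against each marker median and are no test of them. With the pan-germ cell median taken as no change, which shifts all genes by 0.32 on the log2 scale, the members' median was -0.091, 3 members (Mki67, Incenp and Prc1) were called lower and 2 (Bub3 and Pttg1) higher. With undifferentiated spermatogonia genes as the reference, a shift of 0.53, none was lower, 8 were higher (Cdk1, Cdc25c, Ncaph, Bub3, Mad2l1, Tpx2, Pttg1 and Espl1), and the median was 0.12. With the Sertoli cell median as the reference, 41 of 42 were lower, at a median of -0.79. Over all genes, 7757 were called higher with the pan-germ reference, 11002 higher with the undifferentiated one and 8538 lower with the Sertoli one. Each median was taken as fixed, without the spread of its list, so the calls of single members here only rank them by their fold change and its error.

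The further lists of mitotic genes had 118 tested genes, of which 50 were lower, 2 higher and 66 not called, with a median of -0.27. Over all tested genes 11.8% were called lower and 8.79% higher. In the outer kinetochore list, 11 of 17 were lower and none higher. Zw10, which brings dynein to the kinetochore, had 50.8, 46.2, 48.2 and 45.7 CPM in WT 1 to 4 and 28.3, 33.4, 29.9 and 34.2 CPM in cKO 1 to 4, a difference of -0.60 ± 0.0789 on the log2 scale (SE, n = 4 each, edgeR adjusted p = 0.0025). Of 15 inner kinetochore genes 4 were lower and none higher, the 4 being Cenpi, Cenpq, Apitd1 and Mlf1ip (CENP-U), the last 1.51-fold lower (adjusted p = 0.011 by edgeR). Condensin II had 2 of 3 lower, Ncapd3 and Ncapg2, the latter by 1.31-fold (edgeR adjusted p = 0.027).

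Other motors, spindle and cytokinesis factors resembled the members, with 22 of 36 lower, none higher and a median of -0.44. Cenpj, a centriole protein, went from 46.3 ± 1.55 to 32.0 ± 1.39 CPM ( SD, n = 4 each, edgeR adjusted p = 0.0018). Gsg2, the histone kinase haspin, singled out after its values were seen, had the steepest fall of the list, with 13.5, 12.1, 10.8 and 12.7 CPM in WT 1 to 4 and 6.14, 6.89, 5.57 and 5.14 CPM in cKO 1 to 4, and log2 fold change -1.05 ± 0.128 (SE, edgeR adjusted p = 0.0021). Mitotic cohesin and its regulators had 6 of 15 lower and a median of -0.17, and Sgol2, a shugoshin that protects centromeric cohesin, was 1.53-fold lower (edgeR adjusted p = 0.0034). In the APC/C list 3 of 17 (Anapc10, Ube2c and Fbxo5) were lower and 1, Cdc26, higher, and the median of -0.074 lay near that of all genes. Fbxo5 (EMI1, an APC/C inhibitor) was 1.52-fold lower (adjusted p = 0.0087 by edgeR). Cdc26, an APC/C subunit named after its values were seen, rose from 34.1 ± 2.84 to 45.9 ± 5.20 CPM (SD, n = 4 each, edgeR adjusted p = 0.016).

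Among regulators of G2 and M phase transcription 2 of 15 (Foxm1 and the NF-Y subunit gene Nfyc) were lower and 1 higher, shares close to those of all genes tested (11.8% and 8.79%). Foxm1, a forkhead activator of mitotic genes, had 91.5, 91.1, 86.9 and 85.7 CPM in WT 1 to 4 and 51.8, 71.8, 53.4 and 60.3 CPM in cKO 1 to 4. All cKO libraries were lower, with a fitted log2 change of -0.58 ± 0.0987 (SE, n = 4 each, edgeR adjusted p = 0.0060). Rbl2, which encodes the p130 protein of the repressive DREAM complex and was named after its values were seen, had 47.5, 52.4, 53.9 and 57.5 CPM in WT 1 to 4 and 80.0, 61.9, 74.5 and 69.7 CPM in cKO 1 to 4. It was higher in every cKO library (log2 fold change 0.44 ± 0.0898, SE, edgeR adjusted p = 0.012). The S phase list held genes of DNA replication and nucleotide supply, with Ccne1, Ccne2, E2f1, Uhrf1 and Chaf1b beside them. Of its 20 genes, 7 were lower and 1, Chaf1b, higher, with a median of -0.32. Rrm2 was 1.55-fold lower (edgeR adjusted p = 0.0034). Of 7 germ line paralogues of mitotic genes 5 were lower (Ccna1, Aurkc, Smc1b, Rec8 and Rad21l). The list is not separate from the marker lists above. Smc1b, Rec8 and Stag3 are also counted among the meiotic prophase genes, and Ccna1 among the pachytene and spermatid genes. Aurkc, the Aurora kinase of meiosis, fell from 1.37 ± 0.383 to 0.431 ± 0.107 CPM, and Smc1b, a meiotic cohesin subunit, was 1.47-fold lower (edgeR adjusted p = 0.0085 and 0.0050). Among the germ line cyclins, Ccna1 was lower (edgeR adjusted p = 0.0073), at low levels of 1.19 ± 0.505 CPM in WT and 0.260 ± 0.0765 CPM in cKO. Ccnb3 had 42.7 ± 14.7 CPM in WT and 56.5 ± 9.08 CPM in cKO (SD, n = 4 each) and was not called.

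**Figure D5:**
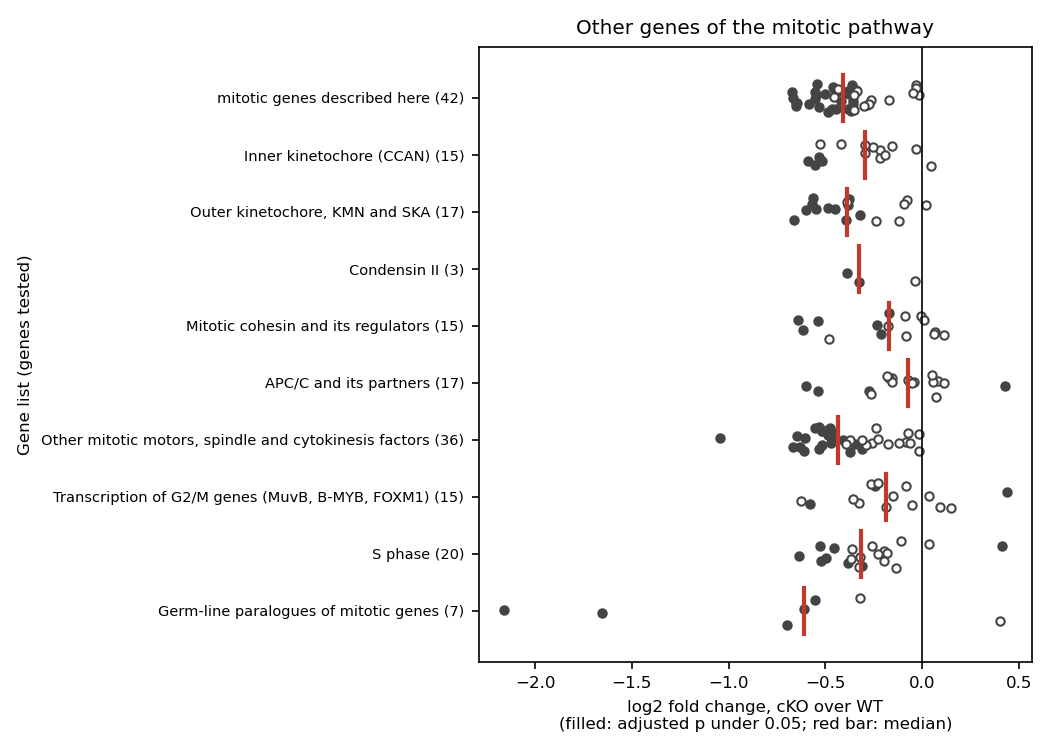
Log2 fold change of cKO over WT (horizontal axis) for the 42 mitotic genes and 9 other lists, each point a gene, filled where the adjusted p is under 0.05, red bars list medians. The medians of the motor (-0.44) and outer kinetochore (-0.39) lists lie near that of the 42 genes (-0.41), that of the APC/C list (-0.074) nearer 0. With undifferentiated spermatogonia genes as the reference all points shift right by 0.53.

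The count of calls rested on the libraries used. Leaving out 1 library at a time left 15 to 36 members called lower and none higher: 15 without cKO 1, 18 without cKO 3, 19 without WT 2, 20 without WT 1 and 36 without cKO 2. In all 8 of these fits 15 members were called: Mki67, Top2a, Smc2, Smc4, Bub1, Spc24, Ndc80, Incenp, Aurka, Tpx2, Kif11, Kif23, Prc1, Anln and Cdc25b. Of the members not called with all libraries, Ccnb1, Ccna2, Ncaph, Bub1b, Mad2l1, Aurkb and Kif20a were called only in the fit without cKO 2. Ccnb2 and Ncapg were called in 2 of the 8 fits. Without WT 1 and WT 2, which leaves 2 WT libraries, the members' median log2 fold change was -0.35, against -0.41 with all libraries, and 39 of 42 were below 0. In that smaller comparison 4 members were called lower (Mki67, Top2a, Incenp and Prc1), 27 had an unadjusted p under 0.05 in that direction by edgeR and the calls over all genes fell from 3312 to 438.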

How the data were processed

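The authors deposited estimated counts, 1 value per gene symbol and library, without depth or length scaling. Per the submitters' processing notes, kallisto 0.42.5, edgeR and mm9 were used; which annotation was used is not stated in the sources at hand. Counts were rounded (49.6% of values were not whole), filtered with filterByExpr by genotype, TMM-scaled and tested with edgeR 4.0.16 (quasi-likelihood, robust, genotype only; R 4.3.3), adjusted by Benjamini-Hochberg over 16059 genes, threshold 0.05; CPM are counts over TMM-scaled totals. Standard errors are the log2 fold change over the square root of F. Ratios of partners used log2 CPM with a prior count of 2 and exact two-sided permutation over 70 assignments, adjusted over 10 pairs. The members and gene lists were chosen with earlier results of these data known. Named in full were, per role group, the members of smallest and largest p, members opposite in sign to their group (none), members of the partner pair with the largest difference, and, of each other list, the called gene of smallest p; further genes were added after their values were seen. Alternatives were DESeq2 1.42.0, limma-voom (3.58.1), RLE and upper-quartile factors, other filters, a replicate block, left-out libraries and marker medians as no change. No 2 libraries agreed within sampling noise (lowest chi-square per degree of freedom 20.2). Shared sequence was counted as 31-base runs in GENCODE M21 transcripts, and lengths came from the same release, by symbol. Since no source here ties each library to its own animal, p-values measure only the spread between these libraries.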

Additional observations from a re-analysis of the deposited data

Results flagged for a closer look

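In 84 groups of 4 libraries (42 genes in 2 genotypes), 4 held a library far from the other 3, where chance flags about 1 group in 20. Ccnb1 had 91.4 CPM in Brg1 cKO 2 and 53.8 to 57.2 CPM in the other cKO libraries. Ttk had 37.7 CPM in Brg1 cKO 2 against 24.0 to 26.1 CPM in the others. Incenp had 78.0 CPM in Brg1 cKO 2 against 62.6 to 65.2 CPM. Cenpf had 375.1 CPM in Brg1 WT 1 and 319.4 to 325.5 CPM in the other WT libraries.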

How the results depend on the processing

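Members called lower numbered 26 to 32 under DESeq2, limma-voom, RLE and upper-quartile factors and both filters, against 28, with none called higher. With the replicate block there were 22, with 1914 genes called in all and 31 in the other mitotic lists (against 3312 and 52). Same-numbered libraries did not clearly deviate together (correlations -0.21, 0.13, -0.37 and 0.15, and 1 of 4 matched its own number best). With 4 libraries per genotype this check cannot exclude a pairing, and the main test used none. Leaving out 1 library gave 15 to 36 members called lower, 1608 to 3477 genes in all and 30 to 56 in the other mitotic lists. Without Brg1 WT 1 and 2 these were 4, 438 and 8, while the members' median was -0.35, against -0.41 with all libraries. With the pan-germ cell median as no change, 3 members were lower and 2 higher, at a median of -0.091, and 8397 genes were called (640 lower, 7757 higher). With the undifferentiated spermatogonia median, 0 members were lower, 8 were higher, the median was 0.12 and 11365 genes were called (363 lower, 11002 higher). With the Sertoli cell median, the members' median was -0.79, 8608 genes (8538 lower, 70 higher) and 112 of the other mitotic genes were called. These counts move because every gene is shifted by the same amount.

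Single members changed sign as follows. Relative to the undifferentiated spermatogonia median the log2 differences were 0.18 (Ccna2), 0.25 (Ccnb1), 0.094 (Ccnb2), 0.52 (Cdk1), 0.15 (Cdc25b), 0.36 (Cdc25c), 0.15 (Smc2), 0.063 (Smc4), 0.11 (Ncapd2), 0.074 (Ncapg), 0.26 (Ncaph), 0.19 (Bub1b), 0.50 (Bub3), 0.26 (Mad2l1), 0.028 (Ttk), 0.17 (Cenpe), 0.044 (Cenpf), 0.072 (Spc25), 0.18 (Aurkb), 0.19 (Birc5), 0.16 (Cdca8), 0.17 (Tpx2), 0.085 (Kif11), 0.13 (Kif2c), 0.17 (Kif4), 0.23 (Kif20a), 0.15 (Kif23), 0.082 (Anln), 0.095 (Ect2), 0.50 (Pttg1), 0.48 (Espl1). Relative to the pan-germ cell median they were 0.035 (Ccnb1), 0.30 (Cdk1), 0.15 (Cdc25c), 0.052 (Ncaph), 0.29 (Bub3), 0.044 (Mad2l1), 0.020 (Kif20a), 0.29 (Pttg1), 0.27 (Espl1). Without Brg1 WT 1 and 2 they were 0.24 (Cdk1), 0.0057 (Bub3), 0.090 (Espl1). Cdk1 was 0.0050 under limma-voom and 0.0015 under the block. Over the fits without 1 library Cdk1 ran from -0.12 to 0.14, Espl1 from -0.18 to 0.017 and Pttg1 from -0.071 to 0.026, the cause not tested. Nothing here limits the members by depth, since each had at least 178 counts in every library.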
